A study of Mus musculus with 17 samples.

Results

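The mRNAs of 7 subunits of the GABA-A receptor (Gabra2, Gabra3, Gabra4, Gabra5, Gabrb1, Gabrb2 and Gabrg1) were followed through the dilution and amplification of mouse cortex mRNA. Their probe sets were taken as those with a single gene symbol in the array annotation that is 1 of these 7, which gave 21 of the 45037 probe sets analysed, and 7 of the 18193 genes that such probe sets stand for. Gabra2 had 5 probe sets, Gabra3 had 2, Gabra4 had 2, Gabra5 had 1, Gabrb1 had 4, Gabrb2 had 5 and Gabrg1 had 2. All samples were drawn from 1 isolate of cortical mRNA of a C57BL/6 mouse, an adult female that had no treatment. Dilutions of 0.1, 1 and 10 pg, amounts like those in a single cell, were amplified as antisense RNA (aRNA) by repeated in vitro transcription for 4 or 2 rounds and hybridized to Affymetrix mouse arrays. The 17 arrays comprised 3 each of 0.1, 1 and 10 pg after 4 rounds, 3 each of 0.1 and 1 pg after 2 rounds, 1 of 10 pg after 2 rounds, and 1 of 5 µg of unamplified mRNA, called bulk. Arrays of a group were separate amplifications of this RNA, so p-values here reflect how much amplifications of this RNA varied, and say nothing of variation between animals.

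GABA-A receptors are chloride channels that open when they bind the inhibitory transmitter GABA, and each is assembled from several subunits drawn from a large gene family. The alpha subunits set where the receptor sits and how it responds to benzodiazepines: alpha 2 and alpha 3 occur mainly at synapses, whereas alpha 4 and alpha 5 occur largely outside them and carry tonic inhibition. GABA binds between an alpha and a beta subunit, beta 2 being widespread in adult cortex, and gamma subunits are needed for synaptic clustering. Gabrg1 and Gabra2 are neighbouring genes on mouse chromosome 5, as are Gabra4 and Gabrb1 on the same chromosome, in the RefSeq annotation of assembly GRCm38.p6. Gabra5 is on chromosome 7, Gabrb2 on chromosome 11 and Gabra3 on chromosome X.

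Levels are given on the log2 scale with the median of each array set to 0, after the arrays were brought to the same range, so that a level of 0 is that of the median probe set. The deposited array medians lay between 5.64 and 6.01. The array of 10 pg after 2 rounds held 872 distinct values, against 1258 to 4345 on the others, and the 21 probe sets took 16 distinct levels on it. Probe sets of different genes could thus share a level on other arrays too. On replicate 1 of 0.1 pg after 2 rounds, which held 1258, Gabra2 1420299_at and Gabrb1 1443205_at both read 3.55. The 6 pan-neuronal markers measured had median percentiles of 65.5, 86.5 and 95.5 at 0.1, 1 and 10 pg after 4 rounds, of 38.0, 83.4 and 92.8 at 0.1, 1 and 10 pg after 2 rounds, and of 91.2 in bulk. This median was thus lower at 0.1 than at 1 pg, and higher after 4 than after 2 rounds at these inputs. Single markers differed. Syt1 was at 91.3 and 91.6 at 0.1 and 1 pg after 2 rounds, and at 92.7 at 0.1 pg after 4 rounds. Stmn2 was at 16.1 at 0.1 pg after 4 rounds, whereas the lowest marker at 0.1 pg after 2 rounds was Snap25, at 23.8. The part of these markers in those comparisons was not tested. The difference between the 3′ and the 5′ probe set is often used as a measure of how far amplified RNA reaches from the 3′ end. For Actb it was −0.81 ± 0.16 at 0.1 pg and 1.13 ± 0.55 at 10 pg after 4 rounds (SD, n = 3 each). At 0.1 pg the 5′ probe set thus read above the 3′ one, so the Actb value there cannot be read as such a reach. For Gapdh it was 3.71 ± 0.03 at 0.1 pg and 4.73 ± 0.21 at 10 pg. The part of transcript ends in the results below was not tested, since the positions of the probes within the transcripts were not used here.

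The subunits differed in how they came through amplification, and probe sets of the same gene often differed as much. Gabrb2, the gene of beta 2, was far above the array median in all 17 arrays by 2 of its probe sets. After 4 rounds it was lower at 0.1 pg than at 10 pg by 3 probe sets, by log2 differences between −2.18 and −4.51. Gabra2 (alpha 2) was lower at 0.1 pg than at 10 pg by 1 of 5 probe sets. Both probe sets of Gabra3 (alpha 3) stayed near or below the array median. By group means, 12, 12 and 15 of 21 were above the array median at 0.1, 1 and 10 pg after 4 rounds, 10, 14 and 13 of 21 at 0.1, 1 and 10 pg after 2 rounds, and 13 of 21 in bulk.

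**Figure D1:**
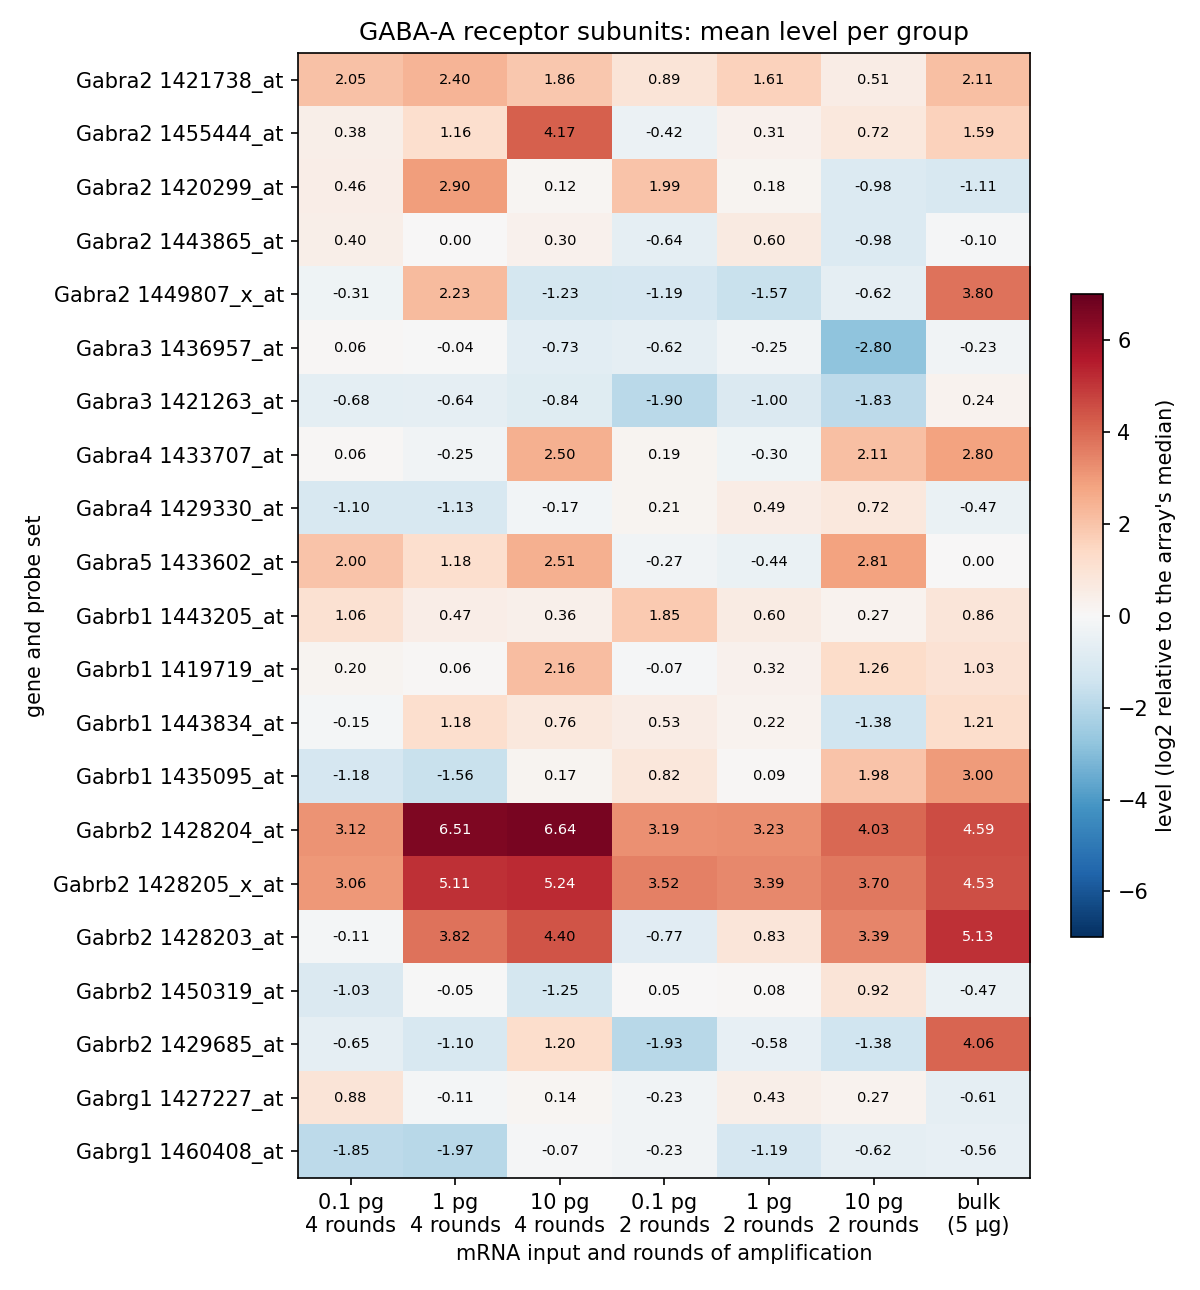
Mean level of the 21 probe sets (rows, with gene and probe set) in the 7 groups (columns), as log2 relative to the array median, red above and blue below it. Groups hold 3 arrays, except the single arrays of 10 pg after 2 rounds and bulk. Gabrb2 1428204_at was highest at 1 and 10 pg after 4 rounds, with 6.51 and 6.64, and Gabra3 1436957_at was lowest on the array of 10 pg after 2 rounds, with −2.80.

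The first comparison asked how a smaller input changed the levels after 4 rounds. At 0.1 pg, 5 of the 21 probe sets were lower than at 10 pg (limma, adjusted p under 0.05), whereas 4.83% of all probe sets were lower. Of Gabrb2 they were 1428204_at, 1428205_x_at and 1428203_at, designed from the same expressed sequence tag. The others were 1455444_at of Gabra2 and 1460408_at of Gabrg1. With each gene taken by the median of its probe sets, only Gabrb2 passed, at −4.23 (limma adjusted p = 0.000271). No probe set of the 7 genes was higher, against 4.04% of all, and at an unadjusted p under 0.05 the counts were 9 lower (11.9% of all) and 0 higher (13.5% of all) in limma. The median difference over the 21 probe sets was −0.91, against 0.10 over all probe sets. The Actb and Gapdh differences and the median pan-neuronal percentiles given above were also lower at 0.1 than at 10 pg on these arrays. So were the marker medians of excitatory projection neurons (23.05 against 54.3), inhibitory neurons (40.04 against 67.35) and endothelial cells (23.03 against 40.01). Those of astrocytes (63.78 against 51.05), oligodendrocytes (73.2 against 55.48), microglia (74 against 69.81), blood, choroid plexus and other organs were higher. The part of all these in the result was not tested. Against the same 10 pg arrays, 1 of 21 was lower at 1 pg (0.588% of all) and 0 were higher (0.0688% of all), with 5 lower (5.58% of all) and 3 higher (3.93% of all) at an unadjusted p under 0.05. The median difference was −0.25, against 0.05 over all. For 0.1 against 1 pg, averaged over 4 and 2 rounds, 2 of 21 were lower, both of Gabrb2 (0.986% of all), and 0 were higher (0.255% of all). Unadjusted, 3 were lower (7.72% of all) and 0 higher (7.36% of all) in limma. The median difference was −0.43, against 0.05 over all. These 3 comparisons share arrays and are not independent of each other.

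The second question was what further rounds did at 1 and 0.1 pg. With 4 rounds, 2 of 21 probe sets were higher than with 2 rounds, against 1.99% of all, and 1 was lower, against 1.91% of all. The higher ones were both of Gabrb2, and the lower one was 1429330_at of Gabra4. At an unadjusted p under 0.05, 5 were higher (10.2% of all) and 3 lower (11.6% of all) in limma. The median difference was 0.38 over the 21 and −0.05 over all. The effect of rounds differed between 0.1 and 1 pg for 1 of 21 probe sets, 1428204_at of Gabrb2, where it was lower at 0.1 pg (1.14% of all). In the other direction it differed for 0 (2.46% of all). Unadjusted, 5 were lower (9.33% of all) and 1 higher (11.6% of all) in limma. The mean of the 6 amplified groups was lower than bulk for 2 of 21, both of Gabrb2 (1.03% of all), and higher for 0 (0.0711% of all). Unadjusted, 5 were lower (7.81% of all) and 0 higher (5.58% of all) in limma. Taken by the median of its probe sets, Gabrb2 was lower than bulk by −2.42, which did not pass. The comparison with bulk rests on the single bulk array, which has no spread of its own: its SE and p come from the spread between amplifications, and how unamplified arrays vary was not measured. The 3′ minus 5′ difference of Gapdh was between 3.45 and 4.73 in the means of the 6 amplified groups and 2.05 in bulk. That of Actb was 1.09 in bulk and ran from −1.55 to 3.29 in the amplified groups, on both sides of bulk. The part of these differences in the result was not tested.

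**Figure D2:**
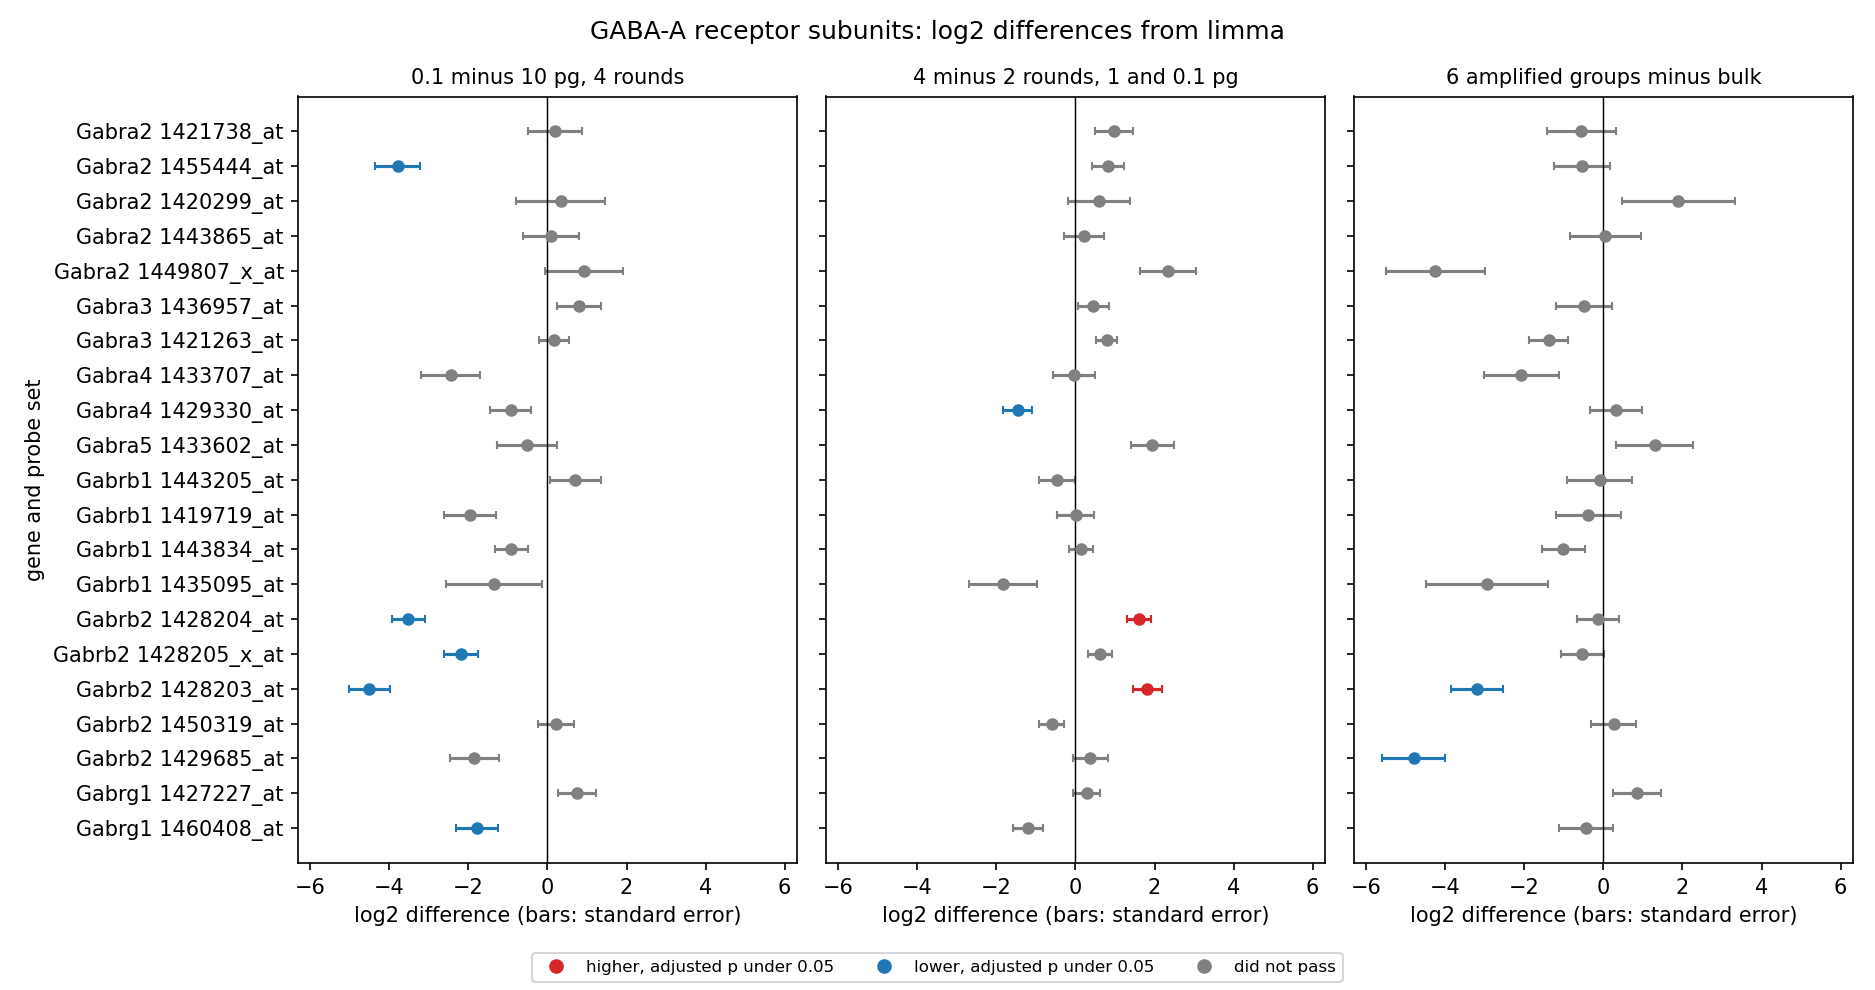
Log2 differences of the 21 probe sets (rows) for 0.1 minus 10 pg after 4 rounds, 4 minus 2 rounds over 1 and 0.1 pg, and the 6 amplified groups minus bulk, from limma, with bars for the standard error. Blue points were lower and red points higher at an adjusted p under 0.05, and grey points did not pass. The largest fall among them was that of Gabrb2 1429685_at relative to bulk, at −4.80.

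Among the alpha subunits, Gabra2 was read by 5 probe sets that gave different patterns. By 1455444_at, its levels after 4 rounds were 0.51, 0.37 and 0.26 at 0.1 pg, 1.33, 0.42 and 1.73 at 1 pg, and 4.82, 4.53 and 3.16 at 10 pg. After 2 rounds they were 0.57, −0.47 and −1.35 at 0.1 pg, 0.51, −0.30 and 0.71 at 1 pg and 0.72 at 10 pg, and bulk was at 1.59. The 3 arrays of 10 pg after 4 rounds thus stood above all other arrays, bulk included, with no overlap. After 4 rounds 0.1 pg was lower than 10 pg by −3.79 ± 0.56 (SE, limma adjusted p = 0.000744), a call that the methods' t-test did not make (adjusted p = 0.0506), and 1 pg was lower than 10 pg by −3.01 ± 0.56 (limma adjusted p = 0.0176). The second did not pass without replicate 1 or 2 of 10 pg (−2.69, adjusted p = 0.114, and −2.83, adjusted p = 0.0728, limma) or without replicate 1 or 2 of 1 pg after 4 rounds (−3.10, adjusted p = 0.0528, and −2.65, adjusted p = 0.0597, limma).

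The other main probe set of Gabra2, 1421738_at, was above the array median on 17 of 17 arrays. It read 2.05 ± 0.97, 2.40 ± 0.56 and 1.86 ± 1.38 at 0.1, 1 and 10 pg after 4 rounds (SD, n = 3 each) and 2.11 in bulk. After 2 rounds it read 0.89 ± 0.54 at 0.1 pg and 1.61 ± 1.01 at 1 pg (SD, n = 3 each), and 0.51 on the 10 pg array. All groups of 3 overlapped in their arrays with at least another group, and it passed in none of the 6 comparisons (limma adjusted p between 0.254 and 0.913).

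A pair of Gabra2 probe sets designed from the same sequence record, 1420299_at and 1449807_x_at, was high in some amplifications and not in others. At 1 pg after 4 rounds, 1420299_at read 3.80, −0.47 and 5.38 and 1449807_x_at read 2.53, −0.47 and 4.62. Replicates 1 and 3 were high by both, and replicate 2 was below the array median by both. At 0.1 pg after 4 rounds, replicate 3 stood out likewise, 1420299_at reading −0.13, −0.70 and 2.20 and 1449807_x_at reading −1.15, −1.07 and 1.29.

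The same pair went apart elsewhere. At 0.1 pg after 2 rounds, 1420299_at read 3.55, 1.36 and 1.05, whereas 1449807_x_at read −1.64, −0.74 and −1.19. In bulk, 1420299_at was at −1.11, below 16 of 16 amplified arrays, whereas 1449807_x_at was at 3.80, above 15 of 16. Their spread within groups was high, with pooled SDs at the 99.5th and 98.4th percentile of all probe sets, and neither passed in any of the 6 comparisons. Leaving out replicate 2 of 1 pg after 4 rounds changed this: 1 pg was then higher than 10 pg by 4.47 for Gabra2 1420299_at (limma adjusted p = 0.0251) and by 4.81 for Gabra2 1449807_x_at (limma adjusted p = 0.0167). For Gabra2 1449807_x_at, 4 against 2 rounds then passed at 3.01 (limma adjusted p = 0.00964). Without that array the rounds effect at 0.1 minus that at 1 pg was −5.94 for 1420299_at (limma adjusted p = 0.0107) and −4.27 for 1449807_x_at (limma adjusted p = 0.0376). Without replicate 3 of 1 pg after 4 rounds, 1449807_x_at was lower in the amplified groups than in bulk, by −4.45 (limma adjusted p = 0.0492). The suffix x in a probe set name marks probes that can also match other transcripts. The last Gabra2 probe set, 1443865_at, stayed between −1.64 and 1.64 on all amplified arrays and was at −0.10 in bulk.

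Gabra4, the gene of the largely extrasynaptic alpha 4, was read well above the median in bulk and at 10 pg by 1433707_at. After 4 rounds this probe set read 0.21, −0.04 and 0.02 at 0.1 pg, 0.34, −1.74 and 0.65 at 1 pg, and 2.86, 2.67 and 1.98 at 10 pg. After 2 rounds it read −1.15, 2.29 and −0.58 at 0.1 pg, 0.12, −0.70 and −0.31 at 1 pg and 2.11 at 10 pg, and bulk was at 2.80. The arrays of 10 pg and bulk were thus all at or above 1.98, and of the 12 arrays with less input only replicate 2 of 0.1 pg after 2 rounds reached that height. The difference of 0.1 from 10 pg after 4 rounds was −2.44 ± 0.75 (SE) and did not pass (limma adjusted p = 0.0515), and neither did that of 1 from 10 pg, −2.76 ± 0.75 (limma adjusted p = 0.131).

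The difference of 0.1 from 10 pg for Gabra4 was near the threshold, and it passed with the deposited values, centering alone, quantile normalization or the filter on low probe sets (limma adjusted p = 0.0434, 0.0383, 0.0475 and 0.0408) and with the methods' t-test (adjusted p = 0.042). Several single arrays also decided whether these differences passed, since all 17 arrays share 1 estimate of the spread. It passed without replicate 1, 2 or 3 of 0.1 pg after 2 rounds (limma adjusted p = 0.0333, 0.0113 and 0.0466) or without replicate 2 or 3 of 1 pg after 4 rounds (limma adjusted p = 0.0321 and 0.0476). That of 1 from 10 pg passed without replicate 2 of 0.1 pg after 2 rounds (limma adjusted p = 0.0274). Fitted on the compared groups alone, the first had an adjusted p of 0.00445 in limma.

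The other probe set of Gabra4, 1429330_at, was lower with 4 than with 2 rounds, whereas 1433707_at gave −0.04 ± 0.53 for that comparison (SE, limma adjusted p = 0.974). By 1429330_at, Gabra4 read −1.30, −0.78 and −1.20 at 0.1 pg and −1.21, −1.81 and −0.38 at 1 pg after 4 rounds, against −0.72, 0.39 and 0.96 at 0.1 pg and −0.25, 1.11 and 0.61 at 1 pg after 2 rounds. It was below the median on all 6 of these arrays after 4 rounds, and above it on 2 of 3 in each group after 2 rounds. Within each input the arrays after 4 rounds did not overlap those after 2 rounds, with the nearest arrays at −0.78 after 4 and −0.72 after 2 rounds at 0.1 pg, and at −0.38 after 4 and −0.25 after 2 rounds at 1 pg. The difference of 4 from 2 rounds was −1.46 ± 0.37 (SE, limma adjusted p = 0.0368). It did not pass without replicate 2 or 3 of 1 pg after 2 rounds, replicate 2 of 10 pg, replicate 1 or 2 of 1 pg, or replicate 1, 2 or 3 of 0.1 pg after 4 rounds, for which the limma adjusted p was between 0.0511 and 0.0849 and the difference between −1.30 and −1.54. Fitted on the compared groups alone, it had an adjusted p of 0.0669 in limma.

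Gabra5, the gene of the alpha 5 of tonic inhibition, was read by 1433602_at. After 4 rounds it read 1.45, 1.38 and 3.17 at 0.1 pg, 0.35, 3.11 and 0.07 at 1 pg, and 2.90, 2.99 and 1.65 at 10 pg. After 2 rounds it read −0.72, −0.47 and 0.39 at 0.1 pg, −1.03, −1.04 and 0.74 at 1 pg and 2.81 at 10 pg. All 9 arrays after 4 rounds were above the median, as was the 10 pg array after 2 rounds, whereas 4 of the 6 remaining arrays were below it. Bulk was at 0.00, the median itself, and 12 of 16 amplified arrays were above bulk.

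The difference of 4 from 2 rounds for Gabra5 was 1.94 ± 0.54 (SE) and did not pass (limma adjusted p = 0.0543). It became 2.11 and passed when replicate 3 of 0.1 pg after 2 rounds was left out (limma adjusted p = 0.0427), and passed with the filter on low probe sets (limma adjusted p = 0.0492). The amplified groups minus bulk gave 1.30 ± 0.97 (SE, limma adjusted p = 0.618).

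Gabra3, the gene of the synaptic alpha 3, was above the median on few arrays. By 1436957_at it was above the array median on 4 of 17 arrays, at most at 0.97, with group means of 0.06 ± 0.21, −0.04 ± 0.89 and −0.73 ± 0.38 at 0.1, 1 and 10 pg after 4 rounds (SD, n = 3 each) and −0.23 in bulk. By 1421263_at it was above the median only in bulk, at 0.24, and the 16 amplified arrays lay between −2.21 and −0.15. Neither passed in any of the 6 comparisons, with limma adjusted p between 0.109 and 0.954.

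Of the beta subunits, Gabrb2 gave the pattern that was read most alike by several probe sets. Its probe sets 1428204_at, 1428205_x_at and 1428203_at were designed from the same expressed sequence tag, and their levels over the 17 arrays correlated with Pearson's r between 0.78 and 0.95, as a description. By 1428204_at, the levels after 4 rounds were 3.47, 2.72 and 3.18 at 0.1 pg, 6.22, 7.29 and 6.02 at 1 pg, and 6.99, 6.24 and 6.68 at 10 pg. After 2 rounds they were 3.0, 3.24 and 3.33 at 0.1 pg, 3.33, 3.34 and 3.03 at 1 pg and 4.03 at 10 pg, and bulk was at 4.59. The 6 arrays of 1 and 10 pg after 4 rounds stood above 6, and the other 11, bulk included, lay between 2.72 and 4.59. In ascending order the means were 3.12 ± 0.38 for 0.1 pg with 4 rounds, 3.19 ± 0.17 at 0.1 pg and 3.23 ± 0.18 at 1 pg after 2 rounds (SD, n = 3 each), 4.03 at 10 pg after 2 rounds, 4.59 in bulk, and 6.51 ± 0.68 at 1 pg and 6.64 ± 0.38 at 10 pg after 4 rounds (SD, n = 3 each). The 3 lowest groups overlapped in their arrays, and so did the 2 highest.

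**Figure D3:**
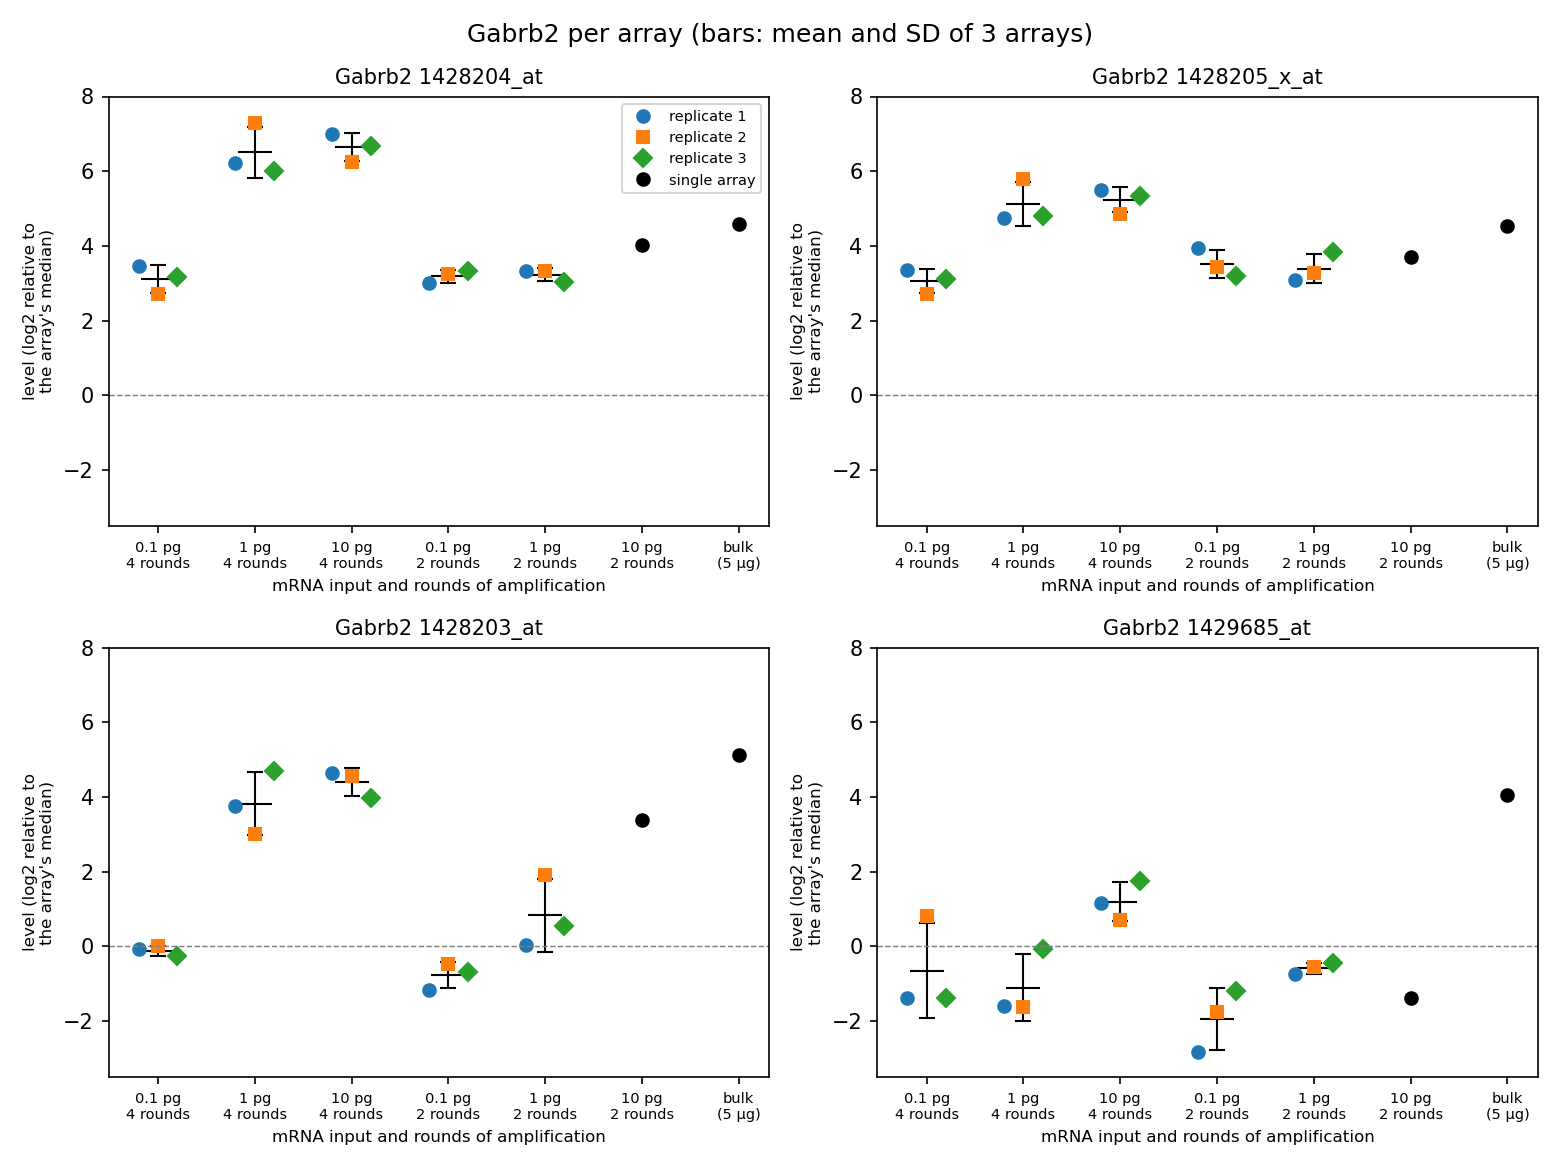
Level of 4 Gabrb2 probe sets on each of the 17 arrays (log2 relative to the array median, dashed at 0) by input and rounds. Colours and shapes mark replicates, black points the single arrays, and bars the mean and SD of 3 arrays. By 1428204_at the arrays of 1 and 10 pg after 4 rounds lie between 6.02 and 7.29, above the 11 others, and by 1429685_at only bulk, at 4.06, is far above the median.

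These differences of Gabrb2 were larger than the spread between amplifications. By 1428204_at, 0.1 pg was lower than 10 pg after 4 rounds by −3.52 ± 0.42 (SE, limma adjusted p = 0.000172), and 0.1 pg was lower than 1 pg, averaged over rounds, by −1.72 ± 0.30 (SE, limma adjusted p = 0.0083). The level with 4 rounds was higher than with 2 rounds by 1.61 ± 0.30 (SE, limma adjusted p = 0.0108). Both averages hold unlike parts: 4 minus 2 rounds was −0.07 at 0.1 pg and 3.28 at 1 pg, and 0.1 minus 1 pg was −3.39 after 4 rounds and −0.04 after 2 rounds. The test of that difference between inputs in the effect of rounds gave −3.34 ± 0.60 (SE, limma adjusted p = 0.00975). Between 1 and 10 pg after 4 rounds the difference was −0.13 ± 0.42 (SE, limma adjusted p = 0.977). Between the amplified groups and bulk it was −0.13 ± 0.54 (SE), an average that also holds unlike parts. The means of 1 and 10 pg after 4 rounds, 6.51 and 6.64, were above bulk at 4.59. Those of the other amplified groups, between 3.12 and 4.03, were below it.

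The related probe set 1428205_x_at followed the same course over a smaller range. It read 3.35, 2.72 and 3.11 at 0.1 pg, 4.75, 5.79 and 4.79 at 1 pg, and 5.50, 4.86 and 5.34 at 10 pg after 4 rounds. After 2 rounds its 7 arrays lay between 3.09 and 3.94, and bulk was at 4.53. At 0.1 pg it was lower than at 10 pg after 4 rounds by −2.18 ± 0.43 (SE, limma adjusted p = 0.00523). Its difference between inputs in the effect of rounds, −2.18 ± 0.60 (SE), did not pass (limma adjusted p = 0.0554), but passed without replicate 3 of 0.1 pg after 2 rounds (−2.34, limma adjusted p = 0.0347), with quantile normalization or with the filter on low probe sets (limma adjusted p = 0.0472 and 0.0331).

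By 1428203_at, Gabrb2 was at or below the array median at the smallest input. It read −0.07, 0.00 and −0.26 at 0.1 pg, 3.76, 3.01 and 4.69 at 1 pg, and 4.65, 4.56 and 3.97 at 10 pg after 4 rounds. After 2 rounds it read −1.15, −0.47 and −0.68 at 0.1 pg, 0.03, 1.92 and 0.54 at 1 pg and 3.39 at 10 pg, and bulk was at 5.13, above 16 of 16 amplified arrays. At 0.1 pg all 6 arrays were at or below the median, and at 1 pg the arrays after 4 rounds stood above those after 2 rounds with no overlap.

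For Gabrb2 1428203_at, 0.1 pg was lower than 10 pg after 4 rounds by −4.51 ± 0.52 (SE, limma adjusted p = 0.000137), and lower than 1 pg over both rounds by −2.77 ± 0.37 (SE, limma adjusted p = 0.00117). This effect of input was seen after 4 rounds, at −3.93, and after 2 rounds, at −1.60. The level with 4 rounds was higher than with 2 rounds by 1.82 ± 0.37 (SE, limma adjusted p = 0.0157), which was 0.66 at 0.1 pg and 2.99 at 1 pg. The difference between inputs in the effect of rounds, −2.33 ± 0.74 (SE), did not pass (limma adjusted p = 0.0862), but passed without replicate 2 of 1 pg after 2 rounds (−2.87, limma adjusted p = 0.0423) or without replicate 2 of 1 pg after 4 rounds (−2.74, limma adjusted p = 0.0423). The mean of the amplified groups minus the single bulk array was −3.20 ± 0.66 (SE from the amplified groups, limma adjusted p = 0.0285).

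The 2 other probe sets of Gabrb2 did not follow this course. By 1429685_at bulk was at 4.06, whereas 0.1, 1 and 10 pg read −0.65 ± 1.28, −1.10 ± 0.89 and 1.20 ± 0.52 after 4 rounds (SD, n = 3 each), and all 16 amplified arrays lay between −2.83 and 1.75. The mean of the amplified groups minus the single bulk array was −4.80 ± 0.79 (SE from the amplified groups, limma adjusted p = 0.00856). The difference of 0.1 from 10 pg after 4 rounds was −1.85 ± 0.63 (SE, limma adjusted p = 0.075) and passed without replicate 2 of 0.1 pg (−2.59, limma adjusted p = 0.0254). By 1450319_at all 17 arrays lay between −1.81 and 0.92, with bulk at −0.47, and no comparison passed (limma adjusted p between 0.278 and 0.896). In bulk the 5 probe sets of Gabrb2 therefore read 4.59, 4.53, 5.13, 4.06 and −0.47.

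Gabrb1, the gene of beta 1, was read by 4 probe sets, none of which passed in any comparison. By 1435095_at it was high on single amplifications: after 4 rounds it read −0.88, −1.88 and −0.80 at 0.1 pg, −0.82, −2.51 and −1.36 at 1 pg, and −1.46, 3.18 and −1.22 at 10 pg. After 2 rounds it read −1.15, 0.00 and 3.61 at 0.1 pg, −1.03, 2.00 and −0.69 at 1 pg and 1.98 at 10 pg, and bulk was at 3.0. On 5 of 17 arrays it was above the median, at 1.98 or more, and on the other 12 at or below it. The pooled SD of 1.84 was at the 99.7th percentile of all probe sets, and limma adjusted p lay between 0.226 and 0.935.

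By 1419719_at, Gabrb1 was highest at 10 pg after 4 rounds, with 3.67, 0.64 and 2.18, against −0.30, −0.07 and 0.97 at 0.1 pg and 1.16, −0.55 and −0.42 at 1 pg after 4 rounds. Replicate 2 of 10 pg fell within the range of the lower inputs. At 0.1 minus 10 pg it gave −1.96 ± 0.65 (SE, limma adjusted p = 0.0702), and without that array it was −2.72 and passed (limma adjusted p = 0.0219). By 1443834_at, Gabrb1 read −0.30, −0.17 and 0.02 at 0.1 pg, 0.86, 1.26 and 1.41 at 1 pg, and 0.34, 1.10 and 0.85 at 10 pg after 4 rounds, so that the 0.1 pg arrays lay below those of both larger inputs with no overlap. With 2 rounds the levels were between 0.00 and 1.04 at 0.1 pg, between −0.25 and 0.85 at 1 pg and at −1.38 at 10 pg, and bulk was at 1.21. Its difference of 0.1 from 10 pg, −0.91 ± 0.43 (SE), and its rounds effect at 0.1 minus that at 1 pg, −1.64 ± 0.60 (SE), did not pass (limma adjusted p = 0.193 and 0.134). The last probe set of Gabrb1, 1443205_at, lay between −0.50 and 3.55 on the amplified arrays with bulk at 0.86.

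**Figure D4:**
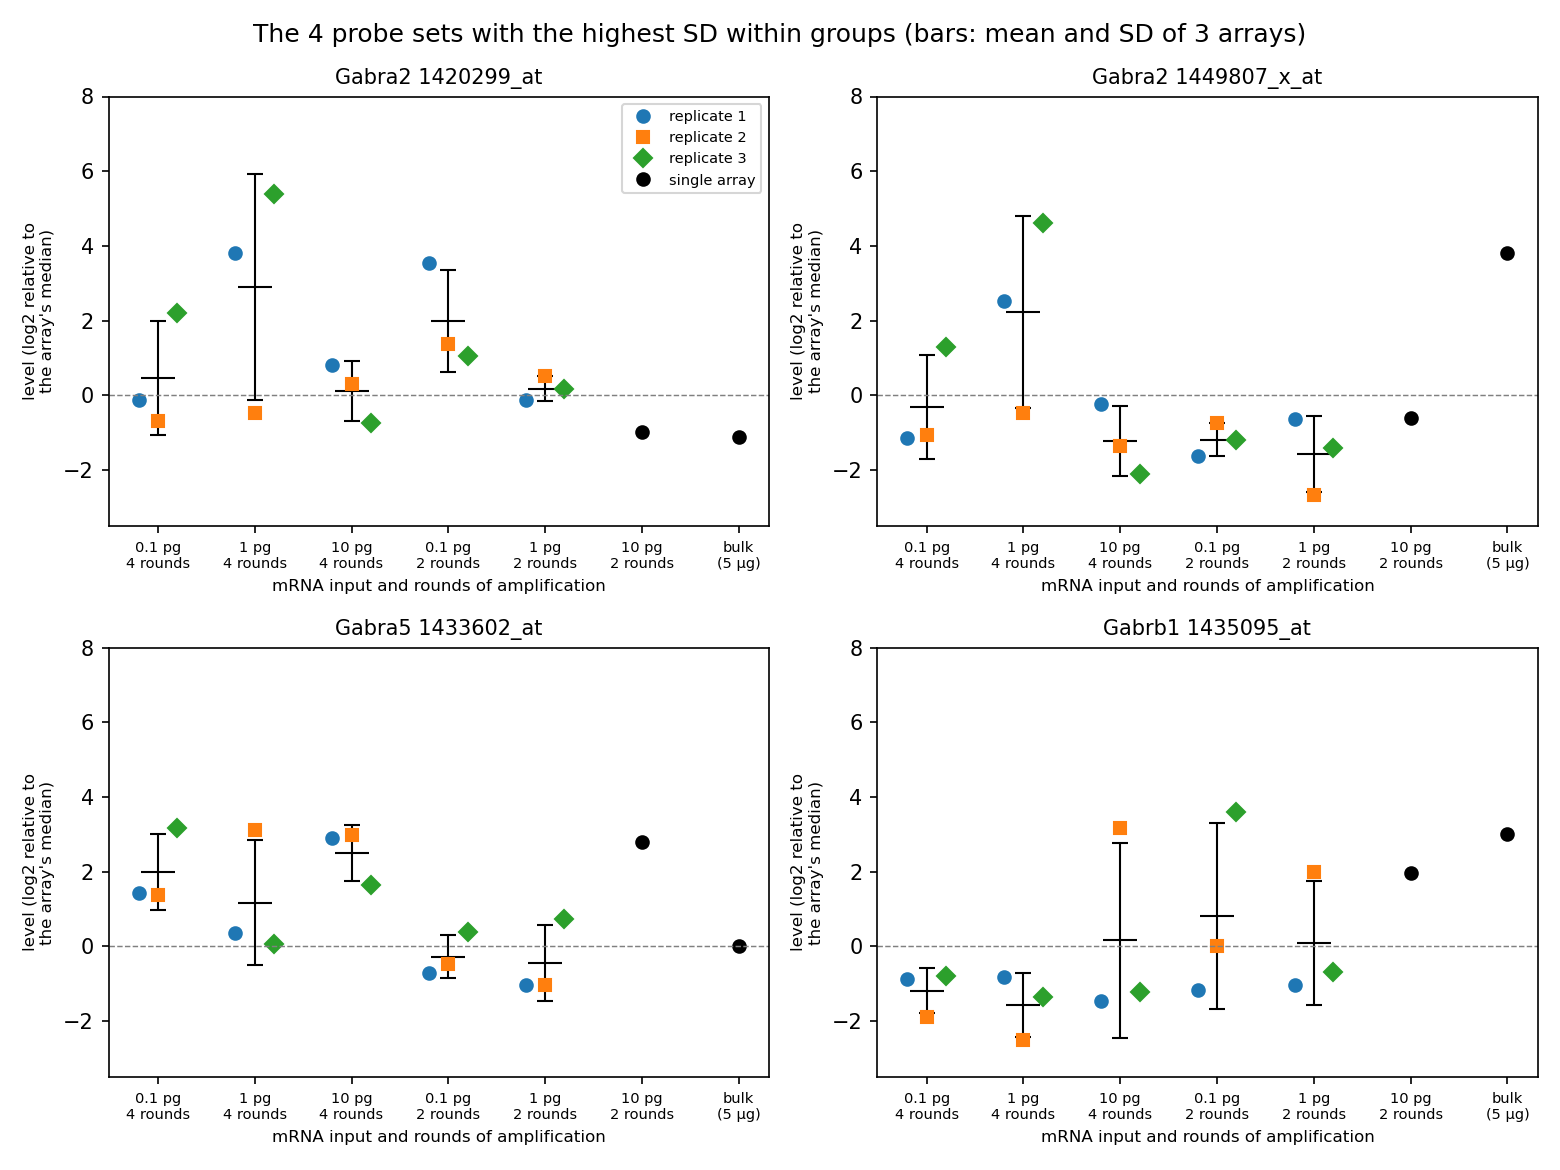
Level of the 4 probe sets with the highest SD within groups on each of the 17 arrays (log2, array median at 0, dashed) by input and rounds, with replicates as coloured shapes, single arrays in black, and bars for the mean and SD of 3 arrays. Single amplifications stand out, such as replicate 2 of 10 pg after 4 rounds for Gabrb1 1435095_at, at 3.18 where its other replicates are at −1.46 and −1.22.

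Gabrg1, the gene of gamma 1, was above the median on 2 of 17 arrays by 1460408_at and on 13 of 17 by 1427227_at, where it did not exceed 1.28. By 1460408_at it read −2.30, −2.13 and −1.11 at 0.1 pg, −1.48, −2.83 and −1.59 at 1 pg, and −0.37, 0.43 and −0.28 at 10 pg after 4 rounds. After 2 rounds it read −0.34, −1.05 and 0.72 at 0.1 pg, −1.32, −0.70 and −1.55 at 1 pg and −0.62 at 10 pg, and bulk was at −0.56. After 4 rounds the arrays of 0.1 and 1 pg lay below those of 10 pg with no overlap.

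The difference of 0.1 from 10 pg after 4 rounds for Gabrg1 1460408_at was −1.78 ± 0.54 (SE, limma adjusted p = 0.0493), and it did not pass when many single arrays were left out. Without replicate 1 or 2 of 0.1 pg after 4 rounds the limma adjusted p was 0.183 and 0.155, and without replicate 1, 2 or 3 of 10 pg it was 0.106, 0.179 and 0.0747. Without replicate 1 or 3 of 1 pg after 4 rounds it was 0.0567 and 0.0506, and without replicate 1, 2 or 3 of 1 pg after 2 rounds 0.0633, 0.056 and 0.0608 in limma. The difference of 4 from 2 rounds, −1.20 ± 0.38 (SE, limma adjusted p = 0.0821), passed without replicate 2 of 0.1 pg after 2 rounds (−1.41, limma adjusted p = 0.0446). The other probe set, 1427227_at, lay between −1.15 and 1.28 on the amplified arrays, with bulk at −0.61, and passed in no comparison (limma adjusted p between 0.18 and 0.955).

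Probe sets of the same subunit gene mostly did not move together over the arrays, as a description. Over 29 pairs of probe sets of the same gene, Pearson's r over the 17 arrays ran from −0.45 to 0.95 with a median of 0.05. Over the 21 pairs of genes, each by its probe set with the highest mean, it ran from −0.42 to 0.46 with a median of −0.05. The arrays share their RNA and groups, so these values carry no test. The median SD within groups was 0.701 for the 21 probe sets, against 0.695 for all probe sets. After 4 rounds it was 0.377, 0.715 and 0.462 at inputs of 0.1, 1 and 10 pg, against 0.438, 0.525 and 0.418 over all probe sets at the same inputs.

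The genes whose levels over the 17 arrays were most like each subunit were named by the highest Pearson's r among all genes. They are the highest of 18193 genes over few arrays of the same RNA, so they are a description and carry no test. For Gabrb2 they were Cdv3 (r = 0.929) and Dcaf8 (r = 0.910), and for Gabra4 they were Gm9789 (r = 0.905) and Rnf146 (r = 0.852). Gabrg1, taken by 1427227_at, was most like Lhx6 (r = 0.891) and Mia (r = 0.870). Its other probe set, 1460408_at, correlated with 1427227_at at r = −0.26. Gabrb1 was most like Prm3 (r = 0.862) and Cdkn1c (r = 0.855). Gabra3 was most like Llcfc1 (r = 0.853) and Egflam (r = 0.841), Gabra5 like Elp2 (r = 0.852) and Nfix (r = 0.787), and Gabra2 like 2310057J18Rik and Fam166a (r of 0.756 and 0.755). None of these 14 genes was another of the 7 subunits.

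Further genes of the GABA system were followed as lists, whose unadjusted counts stand against the same shares of all probe sets as given above for each comparison. Of the other GABA-A subunits, 14 probe sets of 8 genes were measured, and with 4 rounds 2 were higher than with 2 rounds (1.99% of all) and 0 lower (1.91% of all) in limma, with 4 higher and 0 lower unadjusted. They were 1 of 2 probe sets of Gabrp (pi), by 1.39 ± 0.29, and the single one of Gabrq (theta), by 1.26 ± 0.34 (SE). Gabrq also differed between inputs in the effect of rounds, by 2.62 ± 0.68 (SE, limma adjusted p = 0.0435), the opposite sign to Gabrb2 1428204_at. In the other 4 comparisons 0 of the 14 passed in limma, with 3 at an unadjusted p under 0.05 for 0.1 against 1 pg, 2 for 0.1 against 10 pg, 1 for amplified against bulk and 0 for 1 against 10 pg.

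Of 19 probe sets for GABA synthesis, transport and the chloride gradient, 2 were lower (4.83% of all) and 0 higher (4.04% of all) at 0.1 than at 10 pg after 4 rounds: 1 of 4 of Slc32a1, the vesicular GABA transporter, by −2.83 ± 0.70 (limma adjusted p = 0.0199) and 1 of 3 of Slc12a2, the chloride importer NKCC1, by −1.99 ± 0.53 (SE, limma adjusted p = 0.0285). The same Slc12a2 probe set, 1448780_at, was lower at 1 than at 10 pg, by −2.89 ± 0.53 (SE, limma adjusted p = 0.0166; 0.588% of all were lower), whereas 1417622_at and 1417623_at gave 0.28 ± 0.58 and 0.61 ± 0.64 (SE) and did not pass. With 4 rounds Gad1, which makes GABA, was higher than with 2 rounds by 2.79 ± 0.57 by 1416561_at (SE, limma adjusted p = 0.016), whereas its other probe set, 1416562_at, gave −0.69 ± 0.27 (SE) and did not pass. The GABA transporter Slc6a11 was higher by 1 of 2 probe sets, by 1.5 ± 0.40 (SE, limma adjusted p = 0.0467). A list for the scaffold and trafficking of the receptor held 40 probe sets. Of these, 4 were of Dbi, the diazepam-binding inhibitor, which is not itself a scaffold or trafficking protein. Of the 40, 5 were lower (4.83% of all) and 3 higher (4.04% of all) at 0.1 than at 10 pg after 4 rounds. Dbi gave 3 of the 5 lower ones. Unadjusted, 5 were lower (11.9% of all) and 9 higher (13.5% of all) in limma. Those that passed as lower included 1441376_at of Gabarapl2, a relative of the GABA-A receptor-associated protein, at −4.60 ± 0.75 (SE, limma adjusted p = 0.00151). By contrast, 1423187_at of the same gene gave 1.17 ± 0.47 (SE) and did not pass. Dbi was lower by 3 of 4 probe sets, 1433991_x_at, 1438093_x_at and 1455976_x_at. Their suffix x marks probes that can also match other transcripts. The higher ones were 1442043_at of Lhfpl4, by 2.59 ± 0.46, 1424368_s_at of Ubqln1, by 1.49 ± 0.38, and 1452742_at of Trak1, by 1.51 ± 0.44 (SE). Another probe set of Trak1, 1428327_at, was lower, by −1.98 ± 0.42 (SE). For 4 against 2 rounds 4 of the 40 were lower (1.91% of all) and 1 higher (1.99% of all), the largest change being that of 1 of 4 probe sets of Nsf at −2.85 ± 0.48 (SE, limma adjusted p = 0.00565), and against the single bulk array 1 was lower (1.03% of all), 1 of 4 probe sets of Trak1 at −3.14 ± 0.53 (SE, limma adjusted p = 0.00989). Of the 2 GABA-B receptor genes only Gabbr1 had probe sets with a single gene symbol here, and of its 4 probe sets 0 passed in any of the 6 comparisons in limma, with 1 at an unadjusted p under 0.05 in each of 3 comparisons. In the comparisons not named, 0 of the 19 and 0 of the 40 passed in limma. At an unadjusted p under 0.05, the 19 then gave 4 lower for 0.1 against 1 pg, 4 lower and 1 higher against bulk, and 2 higher and 1 lower for the rounds effect at 0.1 minus that at 1 pg. The 40 gave 6 lower and 2 higher for 1 against 10 pg, 5 lower and 6 higher for 0.1 against 1 pg, and 3 lower and 6 higher for the rounds effect.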

How the data were processed

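The authors summarized probes with RMA 2.0 by an upper decile statistic, and the deposited values are log2 signals of 45101 probe sets on 17 arrays. Median centering and scaling by the spread between the 10th and 90th percentiles, named in the methods, are not in the deposited values, so both were applied here, times the mean range of 4.63. The 64 control probe sets were left out. Of the 45037 others, 34945 had 1 gene symbol, 932 several and 9160 none. Each column was matched to its sample by the column name, and its group was read from the sample title.

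Group means of all 17 arrays were fitted with limma 3.58.1 in R 4.3.3 (lmFit, contrasts and eBayes, 16.4 total degrees of freedom), with two-sided p-values adjusted by Benjamini and Hochberg over the 45037 probe sets and a threshold of 0.05. The pipeline was tested on simulated data. Bulk and 10 pg after 2 rounds have 1 array each, whose spread was taken to be that of the other groups. Correlations used python 3.11.15, numpy 2.4.6, pandas 2.3.3 and scipy 1.17.1, and figures matplotlib 3.10.9. A gene stands for its probe set with the highest mean where 1 value is needed. All probe sets of the 7 genes were named, with up to 3 of the largest changes per further list and comparison and the 2 genes most like each. For the scaffold list at 0.1 against 10 pg, all that passed were given. The subunits, lists and tests were chosen with earlier results of these data known. Alternatives were no scaling of the deposited values, centering alone, quantile normalization, a filter on low probe sets, the compared groups alone, the replicate block, no 10 pg array after 2 rounds, a false discovery rate of 0.1% as in the methods, the methods' t-test, the median probe set of a gene and each replicate left out. Precision is limited by the number of arrays. The genome build of the array annotation and the probe positions are not given in the sources used here. Gene locations are those of the RefSeq annotation of assembly GRCm38.p6.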

Additional observations from a re-analysis of the deposited data

Results flagged for a closer look

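For Gabrb2 1428204_at, the effect of rounds differed between the inputs by −3.34 ± 0.60 on the log2 scale (SE, limma adjusted p = 0.00975), the interaction being tested directly. The levels were 3.12 ± 0.38 after 4 rounds and 3.19 ± 0.17 after 2 rounds at 0.1 pg, and 6.51 ± 0.68 after 4 rounds and 3.23 ± 0.18 after 2 rounds at 1 pg (SD, n = 3 each). The level was above bulk, at 4.59, on 3 of 3 arrays of 1 pg after 4 rounds and on 0 of 3 in each of the other groups of 0.1 and 1 pg. The difference ran the same way in the 2 probe sets of Gabrb2 designed from the same record, at −2.18 for 1428205_x_at and −2.33 for 1428203_at, neither of which passed, with limma adjusted p of 0.0554 and 0.0862. Groups of 3 arrays are too small to single out outlying arrays by a test.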

How the results depend on the processing

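Counts of the 21 GABA-A probe sets that passed were mostly kept within 1.5 times by the scaling, filter and fit alternatives. At the methods' false discovery rate of 0.1%, 3 in place of 5 passed for 0.1 against 10 pg, and 0 passed in each of the other 5 comparisons. For 1 against 10 pg, 0 in place of 1 passed with the compared groups alone or with the methods' t-test, and by that test 4 passed for 0.1 against 10 pg, with Gabra2 1455444_at and Gabrg1 1460408_at lost (adjusted p = 0.0506 and 0.101) and Gabra4 1433707_at gained. For amplified against bulk, 1 in place of 2 passed without probe sets below the median, because this filter left Gabrb2 1429685_at untested. It also left out Gabrg1 1460408_at and Gabra4 1429330_at, which had passed in the main fit for 0.1 against 10 pg and for 4 against 2 rounds. For the difference between inputs in the effect of rounds, 2 in place of 1 passed with quantile normalization or without probe sets below the median. With each replicate left out, the counts ranged from 4 to 6 for 0.1 against 10 pg, 0 to 2 for 1 against 10 pg, 2 to 4 for 4 against 2 rounds, 2 to 3 for amplified against bulk, and 1 to 4 for the effect of rounds, and stayed at 2 for 0.1 against 1 pg. Same-numbered arrays did not deviate together (r between −0.20 and 0.14 over 30 pairs, median −0.01). Differently numbered arrays gave r between −0.19 and 0.26 over 60 pairs, median −0.01. The replicate number thus showed no pairing, though such values cannot exclude a batch shared by number. With the replicate block, Gabrg1 1460408_at no longer passed for 0.1 against 10 pg (limma adjusted p = 0.0613), leaving 4 probe sets, and no other call of the 21 changed. No paired analysis was possible for amplified against bulk because bulk is 1 array. The t-test was run for the 2 comparisons of 2 groups of 3, and the compared groups alone are the main fit for amplified against bulk.

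Some differences of each gene's main probe set changed sign, none of them past the threshold on either side. With each replicate left out, 0.1 against 10 pg ranged between −0.59 and 0.75 for Gabra2, and 1 against 10 pg between −0.25 and 1.06 for Gabra2, −0.32 and 0.47 for Gabrb1, −0.52 and 0.12 for Gabrb2, and −0.47 and 0.091 for Gabrg1. For 0.1 against 1 pg the range was −0.42 to 0.12 for Gabra3, −0.13 to 0.73 for Gabra4 and −0.0052 to 0.40 for Gabrg1, and for 4 against 2 rounds −0.38 to 0.49 for Gabra4. The rounds effect at 0.1 minus that at 1 pg ranged between −0.12 and 0.93 for Gabra2, −0.038 and 1.05 for Gabra3, −0.91 and 0.89 for Gabra4, and −1.20 and 0.19 for Gabrb1. Taking each gene by its median over probe sets gave −0.58 for Gabrb1 and −0.52 for Gabrg1 in 0.1 against 10 pg, −0.34 for Gabrb1 in 1 against 10 pg, −0.058 for Gabrb1 in 0.1 against 1 pg, −0.46 for Gabrg1 in 4 against 2 rounds, and −0.87 for Gabra2 and 0.078 for Gabra4 in the difference between inputs in the rounds effect. Amplified against bulk was 0.062 for Gabrb1 with the deposited values and 0.0075 without the 10 pg array after 2 rounds. The causes were not tested. Levels of the main probe sets moved by less than the spread between replicates in 49 of 49 gene and group pairs with quantile normalization, whereas deposited values have no common zero.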
